A study of Mus musculus with 4 samples.

Results

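The genes described here are 7 protein-coding genes at 4 imprinted loci of the mouse: Mcts2 inside H13, Nap1l5 inside Herc3, Nnat inside Blcap, and Inpp5f, within which an imprinted transcript begins. CTCF peaks were assigned to them by position, where the summit lay inside the genes of a locus or within 50 kb of either end in mm10 RefSeq coordinates. Of the 51871 CTCF peaks deposited for mouse testis, 26 met this rule. CTCF was measured by chromatin immunoprecipitation and sequencing (ChIP-seq) in testes of F1 mice from a B6xCAST cross, with 2 CTCF immunoprecipitated samples and 2 input samples of the same tissue and cross. The labels used here give no treatment, age or time. The peaks form a single merged list, so the values below have no error between animals, no depth can be given, and the study's groups cannot be compared. The labels name no sorting of cells, so germ cells and somatic cells cannot be told apart. The list carries no value per parental allele, so imprinting itself was not measured and the label "imprinted" is background here.

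Imprinted genes are expressed mainly from the copy inherited from a single parent, and the choice follows DNA methylation set in the germ line. Retrogenes are gene copies made from a reverse-transcribed messenger RNA, and several imprinted ones sit in an intron of a host gene, where their CpG-rich promoter carries methylation on the maternal copy and they are expressed from the paternal copy. CTCF is a zinc-finger protein that blocks loop extrusion by cohesin and insulates promoters from enhancers, and at some imprinted control regions methylation of its site prevents its binding.

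The 4 loci differed widely in their number of CTCF peaks. The H13 and Mcts2 locus held 11 peaks, the Inpp5f locus 6, the Blcap and Nnat locus 5 and the Herc3 and Nap1l5 locus 4. Fold enrichment, the authors' ratio of ChIP signal to background at the summit, ran from 2.75 inside Inpp5f to 15.9 upstream of H13. The median over the 26 peaks was 6.20, against 6.82 over the whole list, and 9 of the 26 (34.6%) reached the list median (50% of all peaks do). With 100 kb on either side the share was 46.8%, so it depends on where the window ends. Only 1 of the 26, upstream of H13, had a fold of 10 or more (19.6% of all peaks have). By the authors' −log10 q, the significance of a peak after correction for many tests, 11 of the 26 reached the list median of 29.5 (50.2% of all peaks do). Of the 26 summits, 12 lay inside a host gene, with a median fold of 5.24, and 14 lay outside, with a median of 6.46.

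**Figure D1:**
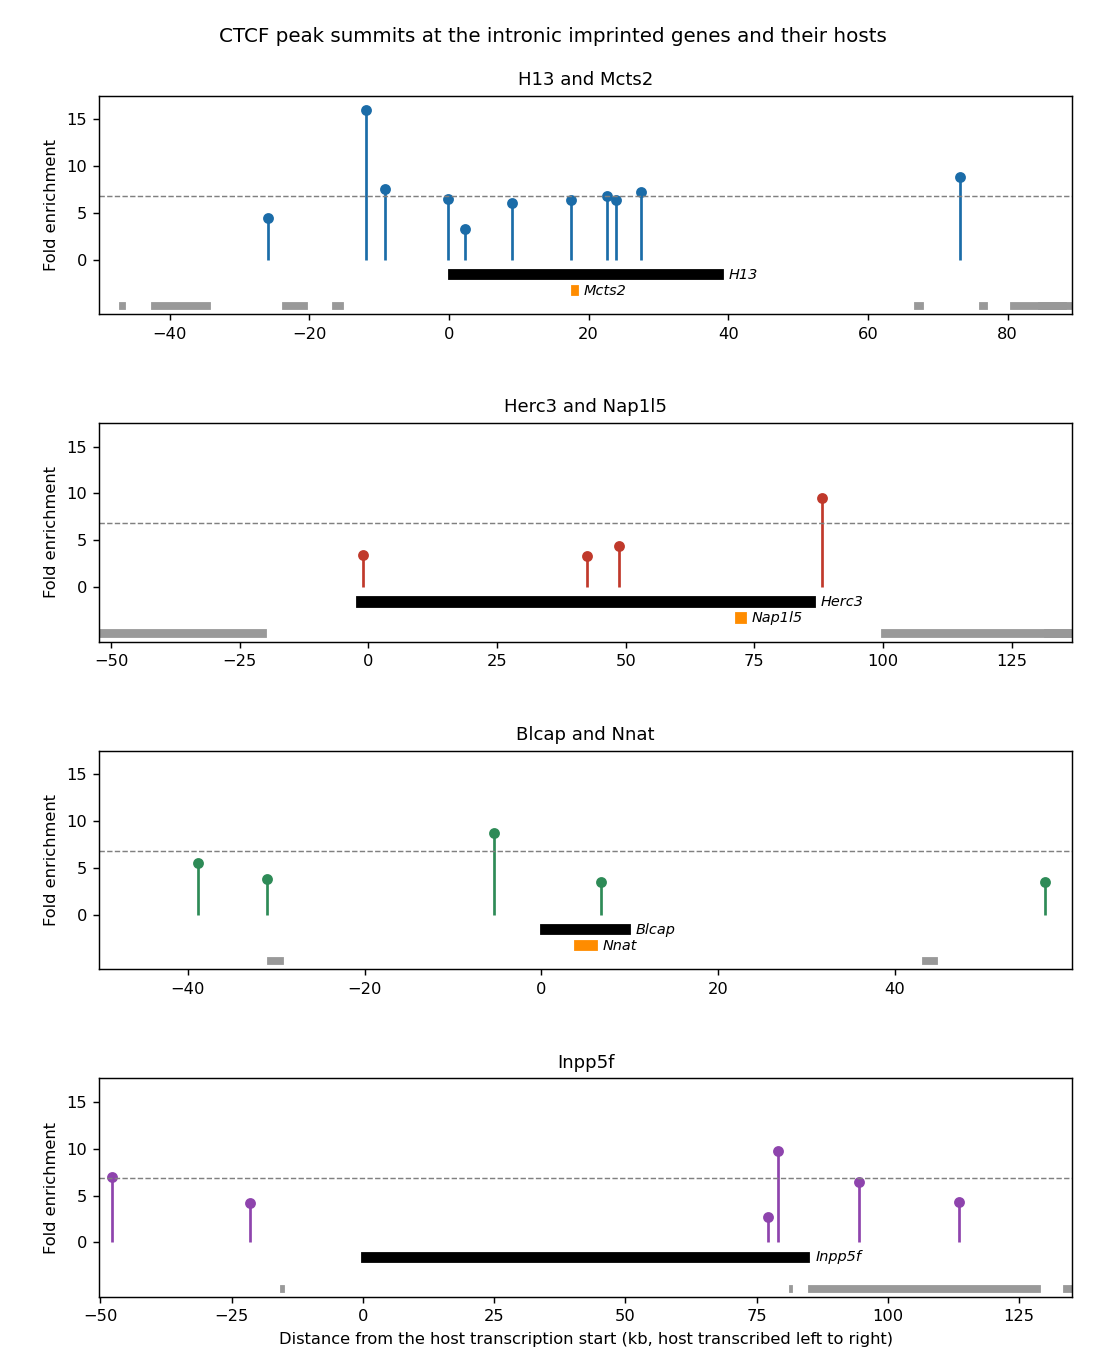
Fold enrichment of every CTCF peak (vertical axis) against the distance of its summit from the host's transcription start in kb (horizontal axis), for the 4 loci with 50 kb on either side; each host is drawn left to right in its direction of transcription. Black bars are hosts, orange bars nested genes, grey bars other annotated genes, and the dashed line is the list median of 6.82; H13 holds 6 summits inside it and Nap1l5 none.

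All 4 hosts had a summit inside the gene and none of the 3 nested genes did, so 4 of 7 members were occupied in this sense (52.5% of 21775 protein-coding genes are). This contrast rests on the summit. Counting any base of a peak adds Mcts2, for 5 of 7, and the share of all genes by that rule is not given here. The nested genes are short, from 0.799 kb for Mcts2 to 2.45 kb for Nnat. H13, Mcts2 and Nnat had a summit within 1 kb of an annotated end, 3 of 7 (38.6% of protein-coding genes do). A peak with a fold of at least 10 lay in the gene or within 50 kb of it for H13 and Mcts2, 2 of 7 (57.2% of protein-coding genes have such a peak), and both had it from the same summit. For the other 5 members the nearest such peak lay farther off. It was 59.3 kb from Herc3 (fold 14.5), 69.5 kb from Blcap (fold 12.4), 73.3 kb from Nnat, 83.1 kb from Inpp5f (fold 12.7) and 133 kb from Nap1l5. With 100 kb on either side the count became 6 of 7 (70.9% of protein-coding genes have such a peak), and with 20 kb it became 1 of 7 (39.9%), so it depends on where the window ends. The shares of members with a summit inside, or with one within 1 kb of an end, are near the background and say nothing particular about these genes.

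H13 encodes signal peptide peptidase, an intramembrane protease that cuts signal peptides left in the endoplasmic reticulum membrane. Its transcripts end at different polyadenylation sites on the parental copies, depending on the Mcts2 promoter in its intron. H13 (gene ID 14950; chromosome 2, 152669422 to 152708668, plus strand, 39.2 kb) had 6 summits inside it. Among the 2884 protein-coding genes of 0.75 to 1.33 times its length, the median was 1 summit and 1.01% held as many as H13 or more. This yardstick was chosen after the values were seen.

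The H13 promoter carried a peak whose summit lay 76 bp upstream of the transcription start in the RefSeq promoter table. That peak (chr2:152669070-152669778, summit 152669385) had a fold of 6.44, above 45.4% of all peaks, and a −log10 q of 51.2, above 72.0%. The promoter window is shown because it held a match to a reduced form of the CTCF core motif. The motif searched reads CC, 3 bases of any kind, AG, 2 bases of any kind, then GGC, on both strands, and matches may overlap. The window, from 250 bases before to 50 bases after the start (RefSeq, GRCm38.p6, chr2:152669211-152669510, plus strand), is printed 5′ to 3′ with the match in capitals.
H13: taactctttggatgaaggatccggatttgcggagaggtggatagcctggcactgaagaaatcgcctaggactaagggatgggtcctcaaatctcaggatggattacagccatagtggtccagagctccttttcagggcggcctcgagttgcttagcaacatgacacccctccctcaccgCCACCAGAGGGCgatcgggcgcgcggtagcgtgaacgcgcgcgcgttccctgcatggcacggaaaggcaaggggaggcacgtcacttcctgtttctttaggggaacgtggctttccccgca
The match fills bases 180 to 191 of the window (chromosome 2, 152669390 to 152669401), and the summit lay 5 bp from it. H13 was the only member with a match, 1 of 7 (8.61% of 32851 RefSeq promoter windows have one). A match is a description of the letters, not evidence of a bound site.

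Within H13 the other summits fell on both sides of Mcts2. Downstream of the H13 start, a weak peak lay at 2.31 kb (summit 152671767, fold 3.31, −log10 q 5.43). A peak at 9.01 kb (summit 152678470) had a fold of 6.08 (−log10 q 30.9). Next came the peak at the Mcts2 promoter, described with that gene, and then 3 peaks whose summits spanned 4.82 kb on its far side. Their folds were 6.83 (summit 152692113), 6.39 (152693425) and 7.22 (152696937). By −log10 q they stood at 22.9, 53.6 and 56.4, so the first of the 3 was far weaker by this measure while its fold was between the other values. The first pair of these summits lay 1.31 kb apart, the closest spacing of the 4 loci. The last 11.7 kb of H13, up to its annotated 3′ end, had no summit.

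The strongest peak of all 4 loci lay upstream of H13. Its summit (152657594; peak chr2:152657158-152658192) was 11.9 kb before the H13 transcription start, with a −log10 q of 79.5 at a fold of 15.9, above 96.9% and 98.4% of all peaks. The nearest annotated gene end, 3.26 kb away, belonged to the long noncoding RNA gene 1700030C14Rik. A second upstream peak lay 9.09 kb before the start (summit 152660370, fold 7.57, −log10 q 24.2). Farther out were a weak peak at 25.8 kb (summit 152643629, fold 4.47, nearest to Gm31791) and, beyond the 3′ end by 34.0 kb, a peak of fold 8.81 (summit 152742658, −log10 q 51.1). The latter was nearest to the pseudogene Gm14162, with Id1, which encodes an inhibitor of basic helix-loop-helix factors, 5.25 kb away. None of the other genes that reach into this window had a summit within 1 kb of an end except Cox4i2, a subunit gene of cytochrome c oxidase. That summit (152764424, fold 4.14) lay 55.8 kb from H13 and outside the window.

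Mcts2 is a retrocopy of the X-linked gene Mcts1, whose product acts in translation re-initiation. Mcts2 (gene ID 66405; chromosome 2, 152687148 to 152687946, plus strand) lies in H13 in the same orientation. A CTCF peak covered its promoter (chr2:152686679-152687228), with the summit at 152686973, 175 bp upstream of the start. Its fold was 6.32 and its −log10 q 22.7, above 44.0% and 42.9% of all peaks, close to the middle of the list. The peak overlapped the 5′ part of Mcts2, although its summit lay before the gene. H13 and Mcts2 were the members with a summit inside the RefSeq promoter window, 2 of 7 (13% of promoter windows have one). At nearly the same fold (6.44 and 6.32), −log10 q was 51.2 at the H13 promoter and 22.7 at the Mcts2 promoter.

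The 3 nested promoters are printed together because maternal methylation of such promoters is the known mark of these genes, which was not measured here, and the peaks beside them differ. CpG pairs are in capitals, and each window is 300 bases, 5′ to 3′ on the gene's strand, from RefSeq (GRCm38.p6). They lie at chr2:152686898-152687197 (plus strand, Mcts2), chr2:157559828-157560127 (plus strand, Nnat) and chr6:58907077-58907376 (minus strand, Nap1l5).
Mcts2: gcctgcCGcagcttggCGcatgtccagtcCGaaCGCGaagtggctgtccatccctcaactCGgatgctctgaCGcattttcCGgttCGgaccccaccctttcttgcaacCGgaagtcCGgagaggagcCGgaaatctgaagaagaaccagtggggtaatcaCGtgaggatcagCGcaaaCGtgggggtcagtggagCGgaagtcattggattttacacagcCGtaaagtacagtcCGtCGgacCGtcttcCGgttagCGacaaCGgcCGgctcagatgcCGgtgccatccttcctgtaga
Nnat: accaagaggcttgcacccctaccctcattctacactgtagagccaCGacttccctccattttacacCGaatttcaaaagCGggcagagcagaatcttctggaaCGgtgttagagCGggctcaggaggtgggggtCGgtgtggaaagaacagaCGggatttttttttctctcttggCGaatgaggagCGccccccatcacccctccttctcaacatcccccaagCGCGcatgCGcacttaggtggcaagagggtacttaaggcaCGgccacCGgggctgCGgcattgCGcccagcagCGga
Nap1l5: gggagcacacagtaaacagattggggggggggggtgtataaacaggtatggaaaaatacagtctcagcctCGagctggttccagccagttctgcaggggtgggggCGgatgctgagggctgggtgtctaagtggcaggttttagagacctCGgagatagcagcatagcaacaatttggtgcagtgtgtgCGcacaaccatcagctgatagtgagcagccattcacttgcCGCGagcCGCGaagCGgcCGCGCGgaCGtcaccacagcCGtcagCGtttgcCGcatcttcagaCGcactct
The Mcts2 window held 25 CpG pairs, more than 81.6% of all promoter windows, and lay within the peak. The Nnat and Nap1l5 windows each held 17, more than 68.6%, and no peak overlapped either. The median over all windows was 7. H13 had 21 CpG pairs, Blcap 17, Inpp5f 15 and Herc3 4. The Herc3 window (58833450 to 58833749) lay inside the annotated gene, which begins at 58831455. The CpG count at its annotated 5′ end is therefore not given.

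Nap1l5, a member of the nucleosome assembly protein family, and its host Herc3, a HECT-type ubiquitin ligase with RCC1-like repeats, had 4 CTCF peaks within 50 kb, or 2.12 per 100 kb, the lowest density of the 4 loci with limits of 50 or 100 kb. With 10 or 20 kb on either side the order turned, and Inpp5f had the lowest (2.85 per 100 kb against 3.67 at Herc3 with 10 kb, and 2.40 against 3.10 with 20 kb). Herc3 (gene ID 73998; chromosome 6, 58831455 to 58920398, plus strand, 88.9 kb) held 3 summits, against a median of 2 in 1822 protein-coding genes of like length. All 3 were weak. The first (58832738) had a fold of 3.39 (−log10 q 4.90) and lay 962 bp upstream of the start in the promoter table, though inside the annotated gene. The second (58876269) had a fold of 3.38 (−log10 q 4.37). The third (58882495) reached a fold of 4.40, above 20.3% of all peaks, at a −log10 q of 6.995. No Herc3 peak inside the gene thus passed a fold of 5.

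The strongest peak of this locus stood just past the 3′ end of Herc3. Its summit (58921767; peak chr6:58921516-58921992) lay 1.37 kb beyond that end, with a fold of 9.48, above 76.6% of all peaks, and a −log10 q of 30.5. Nap1l5 (gene ID 58243; chromosome 6, 58905233 to 58907126, minus strand, opposite to Herc3) had no summit inside it or within 1 kb of an end. This same peak was the nearest summit to its start, 14.6 kb upstream, and 63.6% of RefSeq promoters had a nearer summit. The summits on either side of the Nap1l5 start were 39.3 kb apart. The median spacing between neighbouring summits of the autosomes and X was 18.1 kb. A spacing chosen because it holds a given position tends to be long, so these values are not a like comparison. On the far side, the next summit beyond the window lay 100.1 kb past Herc3 (59020505, fold 9.29), near the end of Gm52905. This same summit (59020505) lay inside Fam13a, the next protein-coding gene, and was the closest to an end of it, 3997 bp away.

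Nnat encodes neuronatin, a small membrane protein abundant in developing brain and in pancreatic beta cells, and lies inside Blcap, which encodes a small membrane protein named for its loss in bladder cancer. Nnat (gene ID 18111; chromosome 2, 157560078 to 157562525, plus strand) and Blcap (gene ID 53619; chromosome 2, 157556362 to 157566361, minus strand) are transcribed in opposite directions. The only summit inside Blcap (157559627) lay 451 bp upstream of the Nnat start. It was weak, with a fold of 3.53, above 7.76% of all peaks, and a −log10 q of 4.29. Its width of 202 bp was the smallest in the list, a width that 3 of the 26 peaks had. The peak (chr2:157559496-157559697) ended before the printed Nnat window began.

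A stronger peak stood upstream of Blcap. Its summit (157571725; peak chr2:157571369-157572098) lay 5.36 kb before the Blcap start, with a fold of 8.77 (−log10 q 50.1), above 70.7% of all peaks by either value. Farther upstream of Blcap, a weak peak of fold 3.80 (summit 157597461) lay 141 bp from an end of the long noncoding RNA gene Platr27. Next to it stood the widest peak of the 4 loci (157604285 to 157605948, 1664 bp, summit 157605193), 38.8 kb before the Blcap start. Its fold of 5.56 exceeded only 35.2% of all peaks, while its −log10 q of 53.6 exceeded 74.7%. The fifth peak, at 157509418 on the other side, 12.2 kb from the gene Gm14279, had a fold of 3.47.

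**Figure D2:**
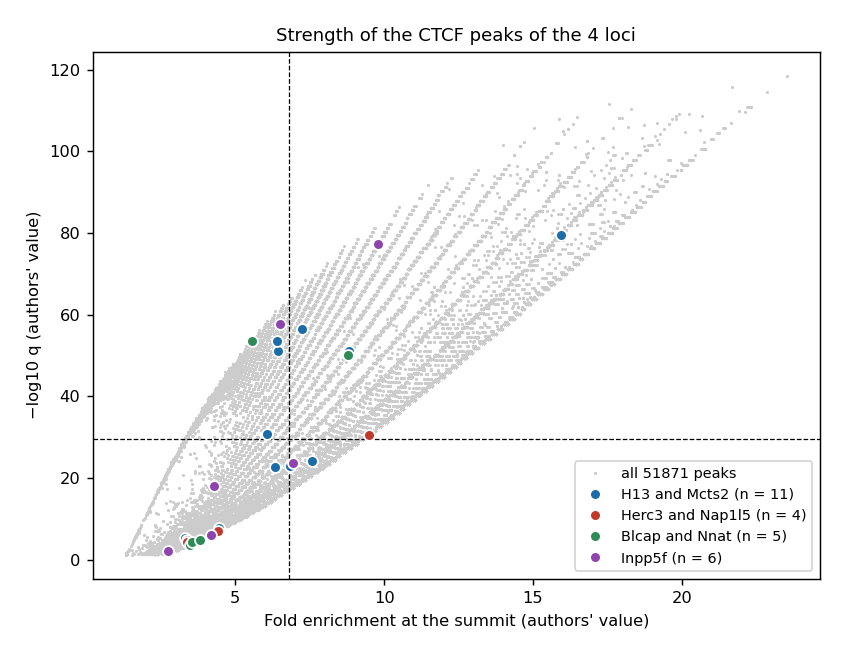
The authors' −log10 q (vertical axis) against fold enrichment at the summit (horizontal axis) for all 51871 peaks (grey) and the 26 peaks of the 4 loci (coloured); dashed lines are the list medians of 29.5 and 6.82. The peak upstream of H13 (15.9 and 79.5) stands highest, and the widest Blcap peak (5.56 and 53.6) lies at the upper edge of the cloud.

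Inpp5f encodes a Sac-domain phosphatase of phosphoinositides that acts on endosomes. The start of its internal imprinted transcript is not in the RefSeq table used here, so its distance to a summit was not analysed here. Inpp5f (gene ID 101490; chromosome 7, 128611181 to 128696436, plus strand, 85.3 kb) held 2 summits, the median of 1873 protein-coding genes of like length. Both lay in the last 7.93 kb of the gene, 1.90 kb apart. The first (128688508; peak chr7:128688377-128688639) was the weakest of the 26, with a −log10 q of 2.19 at a fold of 2.75, above 0.744% and 1.75% of all peaks. The second (128690403; peak chr7:128689974-128690907) was the strongest inside any member, with a fold of 9.79, above 79.0%, and a −log10 q of 77.4, above 96.0%. It lay 6.03 kb before the annotated 3′ end.

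The promoter and most of the body of Inpp5f were free of summits. The nearest summit to the Inpp5f start lay 21.5 kb upstream (128589848, fold 4.20, −log10 q 6.14), and 71.4% of RefSeq promoters had a nearer one. From there to the first summit inside the gene ran 98.7 kb without a peak. This spacing was longer than 89.0% of those between neighbouring summits, but one chosen because it holds a given start tends to be long. Another peak upstream, at 128563579, had a fold of 6.93 and lay 16.6 kb from an end of Bag3, a co-chaperone gene. Past the 3′ end, 2 peaks lay inside Mcmbp, which encodes a protein that binds the replicative helicase and whose annotated end nearly touches that of Inpp5f. Their summits, 9.49 and 28.5 kb beyond Inpp5f (128705922 and 128724936), had folds of 6.49 and 4.30.

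**Figure D3:**
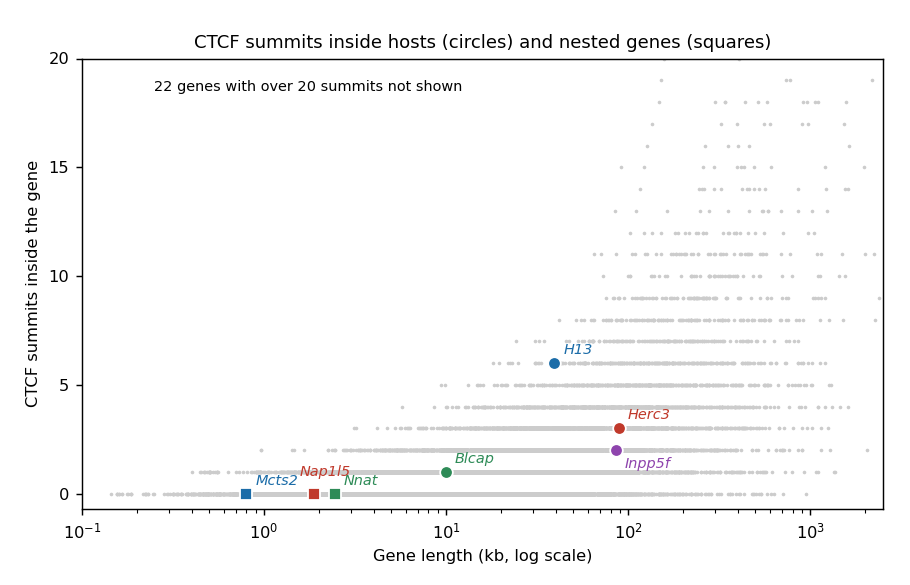
Number of CTCF summits inside each gene (vertical axis) against gene length in kb (horizontal axis, log scale) for protein-coding genes (grey) and the 7 members (hosts as circles, nested genes as squares); 22 genes with over 20 summits are not drawn. H13, with 6 summits in 39.2 kb, lies near the upper edge for its length, while Herc3 and Inpp5f, though longer, hold 3 and 2.

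Counted over the gene and 50 kb on either side, the order of summit density followed the loci. Mcts2 had 9.92 summits per 100 kb and H13 7.90, more than 94.2% and 86.4% of protein-coding genes. Blcap had 4.55 and Nnat 3.90, next to the median of 3.62. Inpp5f had 3.24, Nap1l5 2.94 and Herc3 2.12, the last above 32.0% of protein-coding genes. A nested gene and its host share nearly all these summits, so the 7 values are not independent. With no replicate values, neighbours in this order could not be tested against each other.

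**Figure D4:**
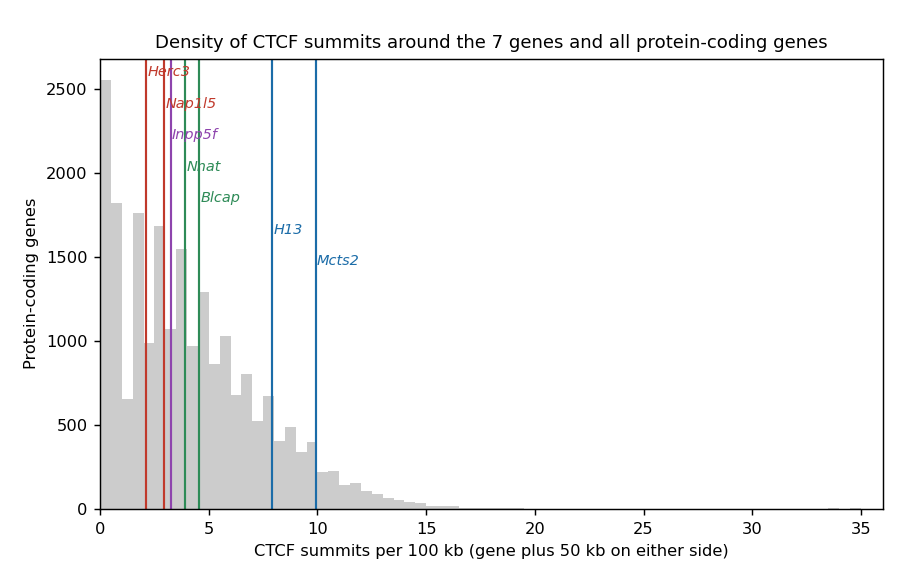
Histogram of CTCF summits per 100 kb, in the gene plus 50 kb on either side (horizontal axis), over 21775 protein-coding genes (vertical axis, number of genes), with a line for each member in the colour of its locus. H13 (7.90) and Mcts2 (9.92) lie in the upper tail, and the other 5 lie between 2.12 and 4.55.

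The distance from the transcription start to the nearest summit separated the members further. It was 76 bp for H13, 175 bp for Mcts2, 451 bp for Nnat, 962 bp for Herc3, 5.36 kb for Blcap, 14.6 kb for Nap1l5 and 21.5 kb for Inpp5f. These distances are from the promoter-table start. For Herc3 the nearest summit lay inside the annotated gene, 1.28 kb from its annotated 5′ end. The nearest summit was upstream of the promoter-table start in all 7. The share of all RefSeq promoters with an upstream nearest summit was not counted, so this says nothing particular about these genes. The median over RefSeq promoters was 7.22 kb. The 4 shortest distances did not go with 1 strength of peak: the fold was 6.44 and 6.32 at H13 and Mcts2, and 3.53 and 3.39 at Nnat and Herc3.

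**Figure D5:**
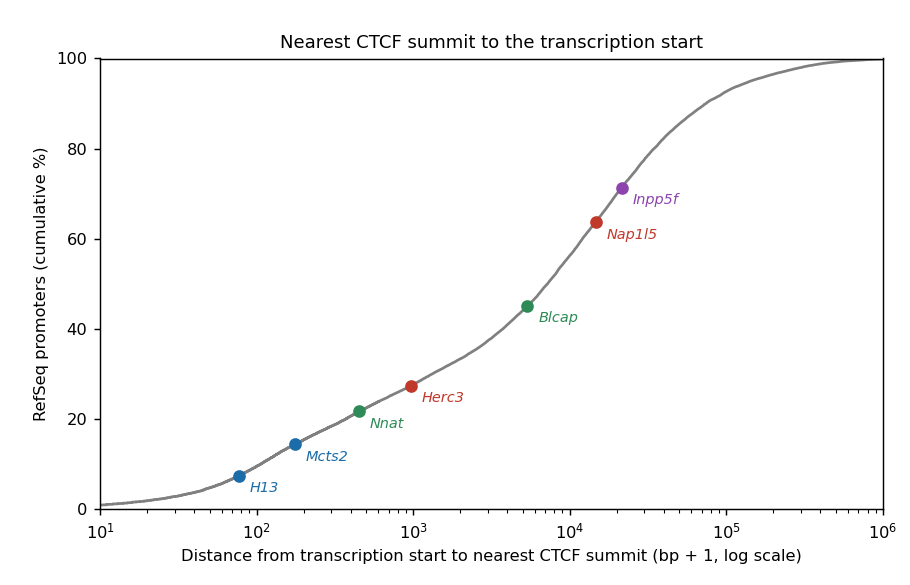
Cumulative percentage of RefSeq promoters (vertical axis) by the distance from the transcription start to the nearest CTCF summit in bp (horizontal axis, log scale), with the 7 members marked on the curve in the colour of their locus. The members spread from 76 bp (H13) to 21.5 kb (Inpp5f).

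A further nested imprinted pair of the same kind, Zrsr1 inside Commd1 on chromosome 11, is given for comparison. Zrsr1 is a retrogene related to splicing factor U2AF, and Commd1 encodes a protein of copper balance and NF-κB turnover. Commd1 with 50 kb on either side held 12 summits, 6 of them inside the gene with folds from 3.73 to 11.9. A summit of fold 11.9 (22969668) lay 2.34 kb upstream of the Zrsr1 start, and the strongest, of fold 14.2, lay at 22987498 beyond the gene. Commd1 had 6.49 summits per 100 kb, between the 7.90 of H13 and the 4.55 of Blcap. Its highest fold inside the gene, 11.9, was above the highest inside any of the 7 members, 9.79. These differences have no replicate error and were not tested.

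Relatives of the retrogenes elsewhere in the genome were counted in the same way. Of 6 such genes, 2 had a summit inside (52.5% of protein-coding genes do) and 3 had a peak of fold at least 10 in the gene or within 50 kb (57.2%). A summit lay within 1 kb of an end in 3 of the 6 (38.6%): Nap1l4 (fold 9.61), Nap1l1 (4.20) and Nap1l2 (3.94). Mcts1, the source of Mcts2, had no summit inside it and its nearest summit to an end lay 37.1 kb away, though 2 peaks of fold at least 10 lay within 50 kb. Nap1l3 had no peak within 50 kb and the nearest summit to an end of Zrsr2 lay 23.0 kb away.

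Of 34 other imprinted genes, 33 matched the table, and Nespas did not. Among the 28 that are protein-coding, 15 had a summit inside, 12 had one within 1 kb of an end and 20 had a peak of fold at least 10 in the gene or within 50 kb. The highest folds at an end were 15.6 at Magel2, 15.5 at the noncoding Peg13 and 11.8 at Peg12. The strongest summit within 1 kb of an end of any of the 7 members was the 6.44 at H13. Folds at an end in the longer list ran from 2.71 to 15.6, and a longer list tends to hold a higher maximum. The list shares were 53.6%, 42.9% and 71.4%, beside the 52.5%, 38.6% and 57.2% of all protein-coding genes given above, and genes of the same cluster share peaks.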

How the data were processed

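CTCF ChIP-seq of whole testis from F1 (B6xCAST) mice comprised 2 immunoprecipitated and 2 input samples, grouped by their titles. The authors deposited 1 merged peak list with, for every peak, the enrichment over background as a fold (a ratio taken at the summit) and a −log10 q; other columns were not used. The submitters' processing notes name BWA 0.7.12, MACS2 2.2.7 and mm10 without their roles. Peak names carry bio2 and merged, so whether both samples entered the list is not given in the sources used here. Only peaks that passed the authors' threshold are listed, so a missing peak is not shown to be absent binding, and the depth is unknown.

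Gene positions, strands and promoters came from RefSeq tables of GRCm38.p6 (mm10 coordinates), in which all 7 members matched. The tables give no exons, so exon or intron was not analysed here. Genes starting below 3 Mb (340) were left out. Summits were counted by position with Python 3.11.15 and pandas 2.3.3, and the counting was tested on simulated data. No test was run, since the list holds no value per sample. The background shares cover protein-coding genes, promoter windows or peaks. The text names all 7 members, every peak of a locus with at most 15, neighbours near a summit, and from each other list the 3 genes with the highest fold at an end. Some further relatives and paralogs are named for comparison. The members and lists were chosen with earlier results of these data known. Alternatives were other flanks, stricter peaks, overlap instead of summit, and other distances from gene ends.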

Additional observations from a re-analysis of the deposited data

How the results depend on the processing

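The total of 26 peaks became 17 with 10 kb on either side and 47 with 100 kb. It was 15 among peaks of fold at least 5, 11 among those at a −log10 q no lower than the median and 16 among those with −log10 q of at least 10. Members with a summit inside went from 4 to 2 (H13 and Inpp5f) with fold at least 5, 2 at a −log10 q no lower than the median and 2 with −log10 q of at least 10. Members with a summit within 1 kb of an end went from 3 to 1 at a −log10 q no lower than the median. Shares of all protein-coding genes under these stricter settings are not given here. Leaving out weak peaks can only lower those shares too, so these falls cannot be read as particular to the members. Members with a peak of fold at least 10 nearby went from 2 to 1 with 20 kb and to 6 with 100 kb. The 9 peaks at or above the median fold (34.6% of 26) became 22 with 100 kb, of 47 (46.8%), where 50% of all peaks are. The share was 35.3% with 10 kb and 38.9% with 20 kb. The remaining 12 alternatives of these 5 counts stayed within 1.5 times. The locus of lowest density turned from Herc3 to Inpp5f with 10 kb (3.67 against 2.85 per 100 kb) and 20 kb (3.10 against 2.40). Of the counts for a single locus, 13 stayed within 1.5 times and 15 did not. The requirement of −log10 q of at least 10 and the count from transcription starts alone were chosen after seeing the data. No paired analysis was possible because the peaks are given for merged samples only, and no replicate could be left out. Without known depth, how many weak sites went unlisted cannot be stated.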

Other observations

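Genes related to the hosts by family or by name were also counted: signal peptide peptidase relatives, HERC ubiquitin ligases, and phosphoinositide or inositol phosphatases. The genes named Inpp5 share that name with Inpp5f, a Sac-domain phosphatase. Whether they share its catalytic domain was not checked, so they are not shown to be its paralogs. Of 18 such genes, 11 had a summit inside (61.1%), 8 had one within 1 kb of an end (44.4%) and 14 had a peak of fold at least 10 in the gene or within 50 kb (77.8%). The shares over all protein-coding genes were 52.5%, 38.6% and 57.2%. The highest folds at an end were 12.1 at Herc2 (36 bp), 9.55 at Sppl3 (600 bp) and 9.21 at Inpp5b (370 bp). Herc2 had its strongest peak at an annotated end and no summit inside the gene. The strongest peak at the Herc3 locus lay 1.37 kb past an end, just outside the 1 kb limit. Herc1, Herc4 and Herc6, like Herc3, had summits inside (1, 4 and 1) and none within 1 kb of an end.

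Across all RefSeq promoter windows, those with a match to the reduced CTCF motif held a summit more often. The share was 35.4% of 2828 windows with a match and 10.9% of 30023 without, given as a description of this list.

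Of the first peaks beyond the 50 kb limits, 1 on each side of each locus and not counted among the 26, 3 of 8 had a fold of at least 10 (19.6% of all peaks have). Their folds were 14.5 (at 59.3 kb) and 9.29 around Herc3, 12.4 (at 69.5 kb) and 8.68 around Blcap, 12.1 (at 136.8 kb) and 4.29 around Inpp5f, and 7.78 (at 51.9 kb) and 4.14 around H13. The outermost peaks within the limits had folds of 4.47 and 8.81 around H13, 3.39 and 9.48 around Herc3, 3.47 and 5.56 around Blcap, and 6.93 and 4.30 around Inpp5f.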
